A study of Mus musculus with 16 samples.

Results

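Outer segment phagocytosis was described here through 10 genes, chosen by name with earlier results of these data known. They were the receptors Mertk, Axl and Tyro3 and their bridging ligands Gas6 and Pros1. The others were the integrin subunits Itgav and Itgb5 with their ligand Mfge8, the scavenger receptor Cd36, and Tub. Each of the 10 genes had 1 transcript cluster, a set of probes summarised to 1 value, among 19938 genes with a single gene symbol. RNA came from 8 male Balb/cJ mice, an albino strain, aged 10 weeks. Light-exposed mice (n = 4) were kept for 18 hours under cool white fluorescent lamps at 10000 lux, and tissue was taken 4 hours later, whereas control mice (n = 4) stayed on a 12-hour cycle of light and dark. From every mouse the neurosensory retina (NSR), which holds photoreceptors, other neurons and glia, and the retinal pigment epithelium (RPE), a layer behind the photoreceptors that was separated from the rest, were measured on an array each. This gave 4 arrays of light-exposed NSR, 4 of control NSR, 4 of light-exposed RPE and 4 of control RPE. The series addresses damage to the retina by light. Its design changes brightness together with the light schedule, whose effects cannot be told apart, and the hour at which mice of either group were killed is not given in the sources used here. Outer segment phagocytosis follows a daily rhythm, and the part of time of day in the light differences was not tested.

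Photoreceptors shed the tips of their outer segments daily, and the RPE engulfs them. Integrin alpha v beta 5, encoded by Itgav and Itgb5, binds the shed membrane through Mfge8, and the receptor tyrosine kinase Mertk then triggers uptake. Gas6 bridges phosphatidylserine on the membrane to Mertk and its relatives Axl and Tyro3. Protein S, the product of Pros1, does so for Mertk and Tyro3. Loss of Mertk in the RCS rat blocks uptake and leads to loss of photoreceptors. In other tissues the same receptors serve macrophages and glia in the clearance of dying cells and dampen cytokine signalling.

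The dissections were checked against marker genes. The median of 12 RPE markers lay between 11.81 and 12.08 on the log2 scale in light-exposed RPE and between 12.37 and 12.39 in control RPE, against 5.76 to 5.98 in light-exposed NSR and 5.94 to 6.16 in control NSR. Of these, Best1 did not mark the RPE here, with means of 5.80 in light-exposed and 5.78 in control RPE and of 5.61 in both NSR groups. Rod transcripts were present in the RPE samples, where the median of 12 rod markers was 7.81 to 8.69 in light-exposed RPE and 8.14 to 8.71 in control RPE, against 11.47 to 12.20 over the NSR arrays. The median of 17 macrophage markers was 6.85 to 7.57 over both RPE groups and 5.78 to 6.07 over both NSR groups. The median of 9 fibroblast and pericyte markers averaged 7.45 in light-exposed RPE and 7.24 in control RPE. In light-exposed and control NSR it averaged 6.28 and 6.41. In control mice Dcn and Lum were 37.3-fold and 9.25-fold higher in the RPE than in the NSR, where both were low (5.49 and 4.05). Of that list Rgs5 was lower in the RPE. The RPE samples thus held RNA of other cells as well. Single RPE arrays stood apart: RPE control 2 had a lens marker median of 8.37 against 6.23 to 6.40 in the other control RPE arrays, the corneal and ciliary median of RPE light 2 lay 2.69 above the highest of the rest of its group, and RPE light 1 had the highest rod median of its group. Results in the RPE were therefore also computed without these 3 arrays, which left fewer light-exposed than control arrays. In that fit 3 of the 4 members called for light in the RPE were still called. Over all 19938 genes 2056 were called in it, in place of 3510. Precision is limited by the 4 arrays per group, and the deposited values hold no measure of background.

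Light moved several of these genes, some of them in opposite directions in the NSR and the RPE. In the NSR, Pros1, Axl, Itgav and Mertk rose and Mfge8 and Gas6 fell, so that 6 of 10 members were called at a limma adjusted p under 0.05, against 15.1% of all genes (8.87% higher and 6.24% lower). In the RPE, Pros1 rose while Mertk, Itgav and Itgb5 fell, so that 4 of 10 were called, against 17.6% of all genes (9.08% higher and 8.53% lower). The median absolute log2 difference of the 10 members was 0.36 in the NSR and 0.26 in the RPE, against 0.11 over all genes in either tissue. All genes include dim ones, whereas of the members only Cd36 was dim. Without the dimmest 25% of genes more were called, 3173 in the NSR and 3704 in the RPE, so that the background share was higher. Of the members, 6 were then called in the NSR and 5 in the RPE. Because the members were chosen with earlier results of these data known, the shares beside their counts are a description and not a test. Bulk samples cannot tell a change in the share of cells that express a gene from a change of RNA per cell.

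**Figure D1:**
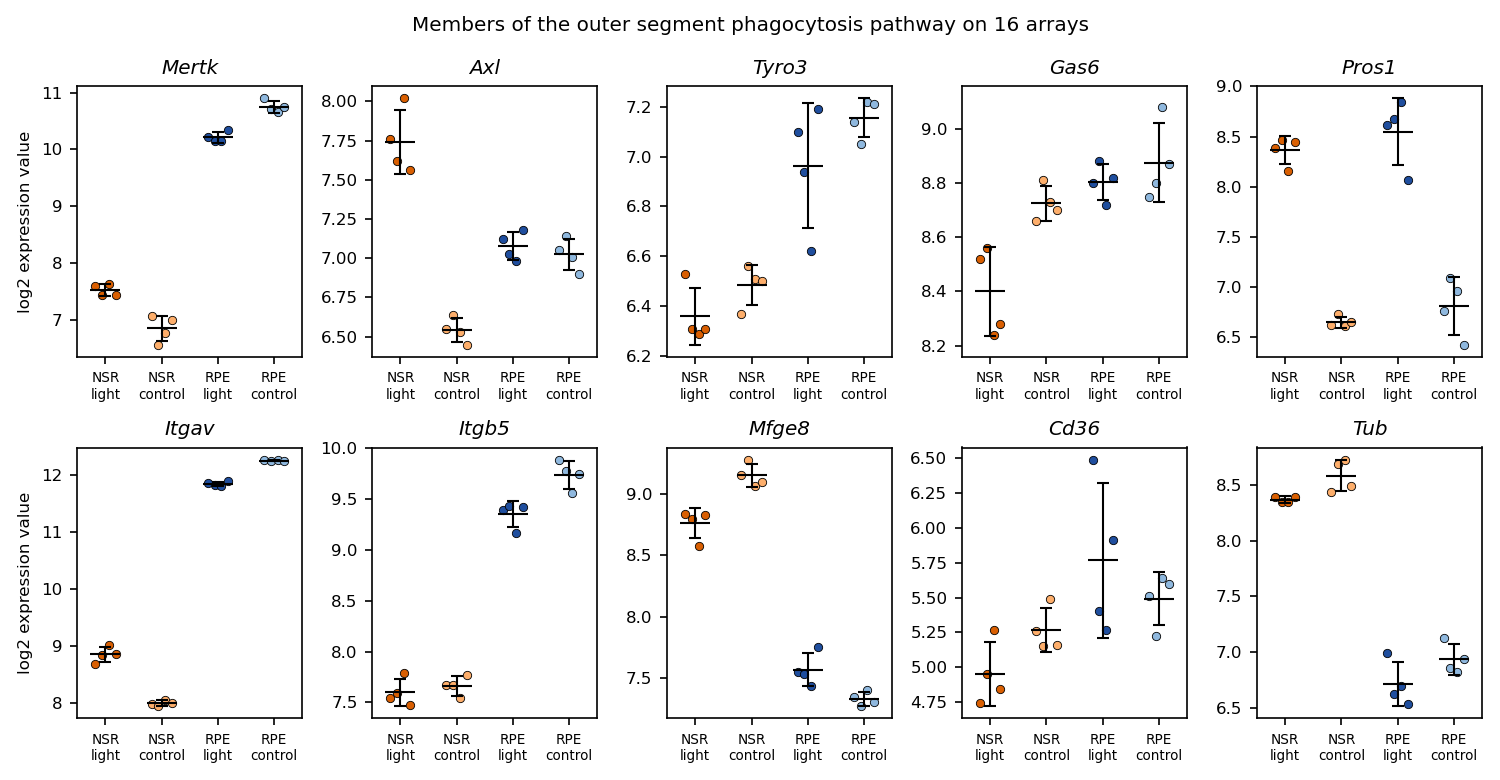
Log2 expression value (vertical axes, which differ between panels and do not start at 0) of each of the 10 genes in the 4 groups; points are arrays, bars the mean ± SD (n = 4). Pros1 is higher on the light-exposed arrays of both tissues, and Mertk and Itgav are higher with light in the NSR and lower with light in the RPE.

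Of the 3 related receptors Mertk, Axl and Tyro3, Mertk differed most between the tissues. In the NSR it stood at 7.59, 7.43, 7.63 and 7.43 on the log2 scale in light-exposed mice, against 7.06, 6.56, 6.76 and 6.99 in control mice. In the RPE it stood at 10.22, 10.15, 10.14 and 10.35 in light-exposed mice, against 10.90, 10.72, 10.65 and 10.75 in control mice. In both tissues the light-exposed and control arrays did not overlap, and the direction was opposite. Mertk rose 1.60-fold in the NSR (log2 difference 0.68, SE 0.11, n = 4 per group, limma adjusted p = 0.000892). In the RPE its light-exposed level was 1.45-fold lower (log2 difference -0.54, SE 0.08, limma adjusted p = 0.000978). Without the 3 RPE arrays that stood apart the log2 difference was -0.52 (adjusted p = 0.0313). Its 4 groups ranked control RPE, light-exposed RPE, light-exposed NSR and control NSR from high to low, and no neighbours in that order overlapped.

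Axl, the relative of Mertk best known from macrophages and dendritic cells under inflammation, stood at 7.76, 7.62, 8.02 and 7.56 in light-exposed NSR, against 6.55, 6.64, 6.53 and 6.45 in control NSR. It rose 2.30-fold there (log2 difference 1.20, SE 0.10, limma adjusted p = 4.88e-06), and 0.833% of all genes rose as much or more. In the RPE, Axl stood at 7.12, 7.03, 6.98 and 7.18 in light-exposed mice and at 7.05, 7.14, 7.01 and 6.90 in control mice. Those groups overlapped, and the log2 difference of 0.05 had a 95% interval from -0.11 to 0.22. With light the NSR thus held the highest of the 4 Axl levels, and control NSR the lowest.

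Tyro3, the member of the receptor family that neurons express widely, passed the test in neither tissue. It averaged 6.36 ± 0.12 in light-exposed NSR and 6.48 ± 0.08 in control NSR (SD, n = 4), and 6.96 ± 0.25 in light-exposed RPE and 7.16 ± 0.08 in control RPE. The log2 differences had 95% intervals from -0.29 to 0.04 in the NSR and from -0.45 to 0.06 in the RPE, and the groups overlapped in both. Array RPE light 3, at 6.62, was the lowest of the RPE arrays.

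The 2 bridging ligands moved differently. Pros1 encodes protein S, which is also an anticoagulant cofactor of protein C. It stood at 8.39, 8.47, 8.16 and 8.45 in light-exposed NSR, against 6.62, 6.73, 6.61 and 6.65 in control NSR. In the RPE it stood at 8.61, 8.67, 8.84 and 8.07 in light-exposed mice, against 6.76, 7.09, 6.96 and 6.43 in control mice. All light-exposed arrays lay above all control arrays in each tissue, and the arrays of the 2 tissues overlapped with and without light. Pros1 rose 3.30-fold in the NSR (log2 difference 1.72, SE 0.08, limma adjusted p = 4.38e-08) and 3.34-fold in the RPE (log2 difference 1.74, SE 0.18, limma adjusted p = 0.00015). It ranked number 83 in the NSR and number 42 in the RPE among 19938 genes ordered by the size of the rise. When arrays RPE control 2 and RPE light 1 and 2 were left out, the rise in the RPE was still called (log2 difference 1.74, adjusted p = 0.00693).

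Gas6, the ligand that binds all 3 receptors, fell in the NSR and gave no call in the RPE. It stood at 8.52, 8.56, 8.24 and 8.28 in light-exposed NSR, against 8.66, 8.81, 8.73 and 8.70 in control NSR, without overlap. The level was 1.25-fold lower with light (log2 difference -0.32, SE 0.08, limma adjusted p = 0.0228). This call depended on single arrays: it was lost without NSR control 2 (adjusted p = 0.065), NSR control 3 (0.0524), NSR light 3 (0.0602) or NSR light 4 (0.0579). In the RPE, Gas6 averaged 8.81 ± 0.06 in light-exposed mice and 8.88 ± 0.14 in control mice (SD, n = 4), with overlap and a 95% interval of the log2 difference from -0.25 to 0.11.

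The promoters of Pros1, which rose in both tissues, and of Mertk and Itgav, which rose in the NSR and fell in the RPE, are shown because these members moved with light in both tissues. Each line gives the 250 bases before the start site that the RefSeq table lists (GRCm38.p6), 5′ to 3′ on the gene's strand, and capitals mark the motifs found on either strand.
Pros1 (chr16:62854057-62854306, plus strand): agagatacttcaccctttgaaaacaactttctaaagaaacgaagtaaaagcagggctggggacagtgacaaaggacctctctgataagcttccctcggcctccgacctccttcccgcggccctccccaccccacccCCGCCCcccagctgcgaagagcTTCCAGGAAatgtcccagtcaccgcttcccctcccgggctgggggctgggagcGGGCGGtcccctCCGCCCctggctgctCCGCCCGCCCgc
Mertk (chr2:128698665-128698914, plus strand): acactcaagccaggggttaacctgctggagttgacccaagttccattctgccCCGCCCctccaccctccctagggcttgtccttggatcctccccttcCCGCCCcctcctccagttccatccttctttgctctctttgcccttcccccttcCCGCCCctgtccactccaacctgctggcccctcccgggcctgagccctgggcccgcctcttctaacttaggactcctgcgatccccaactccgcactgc
Itgav (chr2:83724147-83724396, plus strand): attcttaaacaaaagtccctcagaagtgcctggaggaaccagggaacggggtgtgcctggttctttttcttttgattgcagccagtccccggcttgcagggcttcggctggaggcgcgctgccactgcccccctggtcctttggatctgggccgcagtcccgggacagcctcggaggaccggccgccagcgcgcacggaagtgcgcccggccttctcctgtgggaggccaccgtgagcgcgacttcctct
All 10 members had a window in that table. The motifs searched were AP-1 (TGANTCA), STAT (TTCNNNGAA), CRX and OTX2 (GGATTA), the E-box of MITF (CACGTG) and the GC box (GGGCGG), with the interferon response element and NF-kB by their consensus. In Pros1 the capitals at -92 to -84, counted back from the start site, match STAT, and the others match the GC box, where the last 2 overlap. All capitals in Mertk match the GC box, and none of the letters searched for are in the Itgav window. Of 32851 windows of the same length, 7.02% held the STAT letters and 32.7% the GC box, against 1 of 10 and 9 of 10 members. The NF-kB consensus was in the Tyro3 window, and in 3.90% of all windows. AP-1, the interferon response element, CRX and OTX2, and the MITF E-box were in 0 of 10 members, and in 6.75%, 2.98%, 6.25% and 6.02% of all windows. The windows of 9 members had a GC share above the median of all windows (52.4%), and Cd36 had the lowest at 43.2%. A match is a description of these letters and not a measured binding site.

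Of the integrin subunits, Itgav moved in the same directions as Mertk. This alpha v subunit stood at 8.69, 8.84, 9.02 and 8.86 in light-exposed NSR, against 7.98, 7.95, 8.06 and 8.01 in control NSR. In the RPE it stood at 11.85, 11.82, 11.81 and 11.89 in light-exposed mice, against 12.25, 12.24, 12.26 and 12.24 in control mice. Neither pair of groups overlapped, and the SD over control RPE arrays was 0.01. Itgav rose 1.81-fold in the NSR (log2 difference 0.85, SE 0.08, limma adjusted p = 1.03e-05). Its level in light-exposed RPE was 1.32-fold lower (log2 difference -0.40, SE 0.05, limma adjusted p = 0.000708), and without the 3 RPE arrays that stood apart the adjusted p was 0.0282.

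Itgb5, the beta 5 subunit that pairs with alpha v at the apical RPE surface, changed in the RPE and gave no call in the NSR. It stood at 9.39, 9.43, 9.16 and 9.42 in light-exposed RPE, against 9.88, 9.77, 9.55 and 9.74 in control RPE, without overlap. The level was 1.30-fold lower with light (log2 difference -0.38, SE 0.09, limma adjusted p = 0.0139). When arrays RPE control 2 and RPE light 1 and 2 were left out, the log2 difference was -0.43 and the call was lost (adjusted p = 0.0853). In the NSR, Itgb5 averaged 7.60 ± 0.14 in light-exposed mice and 7.66 ± 0.10 in control mice (SD, n = 4), with a 95% interval of the log2 difference from -0.24 to 0.11.

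Mfge8, the secreted ligand of alpha v beta 5, fell in the NSR, where it stood at 8.84, 8.80, 8.58 and 8.83 in light-exposed mice, against 9.16, 9.28, 9.07 and 9.10 in control mice. The level was 1.31-fold lower with light (log2 difference -0.39, SE 0.08, limma adjusted p = 0.00488). In the RPE it stood at 7.55, 7.53, 7.43 and 7.75 in light-exposed mice, against 7.34, 7.27, 7.40 and 7.30 in control mice. These groups did not overlap either, but the log2 difference of 0.24 missed the threshold (SE 0.08, limma adjusted p = 0.0588). It passed under some alternatives, among them the fit of all 16 arrays (adjusted p = 0.035) and the fit without RPE light 3 (0.036). In all, light-exposed and control arrays did not overlap for 7 of 10 members in the NSR and 5 of 10 in the RPE, against 20.7% and 22.1% of all genes.

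Cd36, a scavenger receptor that takes part in outer segment uptake by rat RPE and binds oxidised lipid, was dim. Its means of 4.95 in light-exposed NSR, 5.27 in control NSR and 5.49 in control RPE lay below 5.63, the limit of the dimmest 25% of genes, so that little can be said of its level. In the RPE it stood at 6.49, 5.40, 5.27 and 5.91 in light-exposed mice, against 5.51, 5.22, 5.64 and 5.60 in control mice, with overlap and a limma adjusted p of 0.523. Its highest array, RPE light 1, also had the highest macrophage marker median (7.57, where the rest of its group had 6.96 to 7.18). That array had the highest rod marker median of its group as well (8.69). RPE control 2 had the highest rod median of the control group (8.71) and a macrophage median of 7.40, but the lowest Cd36 value of that group (5.22). The part of these cells in the Cd36 values was not tested. In the NSR the log2 difference was -0.32 (limma adjusted p = 0.0883), and without NSR light 3 it was -0.43 and called (0.0131). Without RPE control 2 and RPE light 1 and 2, the log2 difference in the RPE was 0.00.

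Tub, a membrane-associated protein of neurons that was described in mice as a ligand of Mertk, averaged 8.37 ± 0.03 in light-exposed NSR and 8.58 ± 0.14 in control NSR (SD, n = 4). The groups did not overlap, but the log2 difference of -0.21 was not called (limma adjusted p = 0.0863). In the RPE it averaged 6.71 ± 0.19 in light-exposed mice and 6.94 ± 0.14 in control mice, with overlap (limma adjusted p = 0.209). The call in the NSR was reached without NSR control 1 (adjusted p = 0.0469) and with quantile normalization (0.0206), and that in the RPE without RPE light 1 (0.0452).

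**Figure D2:**
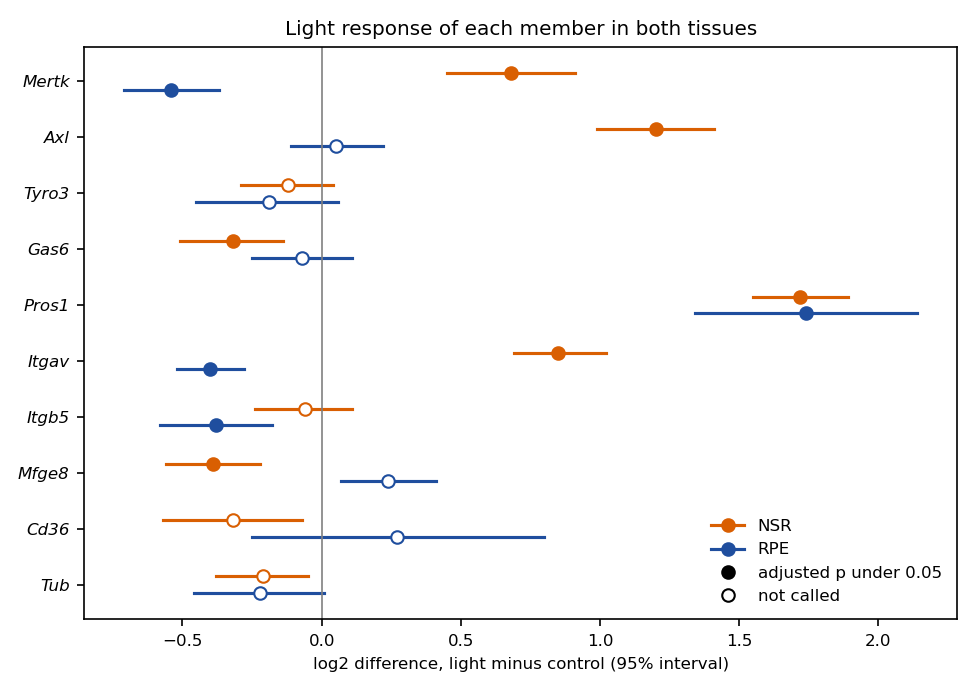
Log2 difference between light-exposed and control arrays (horizontal axis) of each gene, in the NSR (orange) and the RPE (blue); lines are 95% intervals of the limma fit and filled points have an adjusted p under 0.05. The intervals of Pros1 overlap, around log2 differences of 1.72 and 1.74, whereas those of Mertk, Axl, Itgav and Mfge8 do not touch.

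Whether the response differed between the tissues was tested in 1 fit of all 16 arrays, as the response of the RPE minus that of the NSR. The difference was called for 4 of 10 members, against 13.2% of all genes, with 1 member higher and 3 lower, against 5.16% and 8.05%. Itgav had the largest log2 difference among them, -1.25 (SE 0.09, limma adjusted p = 7.15e-08), followed by Mertk with -1.22 (SE 0.14, adjusted p = 1.02e-05) and Axl with -1.15 (SE 0.13, adjusted p = 7.9e-06). Mfge8 went the other way, with 0.63 (SE 0.11, adjusted p = 0.000679). The response of Pros1 differed by 0.02, with a 95% interval from -0.42 to 0.46, and that of Tub by -0.01, with an interval from -0.29 to 0.27. Gas6, Itgb5 and Cd36 had differences of 0.25, -0.32 and 0.59 (adjusted p = 0.196, 0.107 and 0.205), and Tyro3 one of -0.07 (adjusted p = 0.816). Genes called higher in the NSR and lower in the RPE were few, 131 of 19938 or 0.657%, and included Mertk and Itgav. Pros1 was among 644 genes, or 3.23%, called higher in both tissues. Of the members, 0 were among the 290 genes (1.45%) called lower in both or the 55 (0.276%) called lower in the NSR and higher in the RPE.

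**Figure D3:**
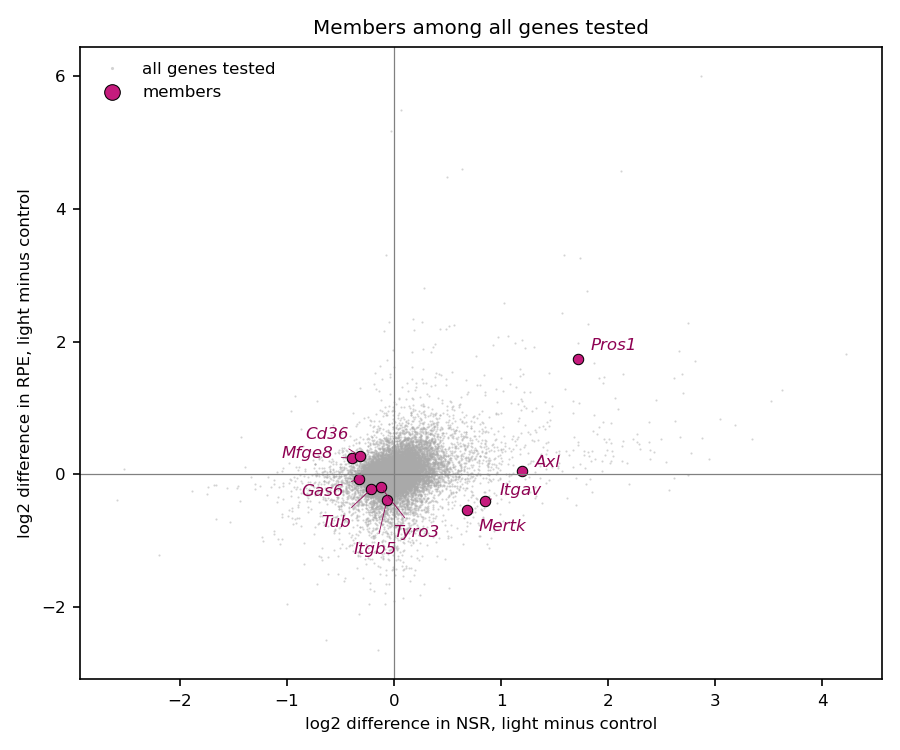
Log2 difference between light-exposed and control arrays in the NSR (horizontal axis) and in the RPE (vertical axis); grey points are the 19938 genes tested and coloured points the 10 members. Mertk and Itgav lie in the lower right quadrant, Pros1 in the upper right, and Axl on the horizontal axis at 1.20.

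The same arrays gave the difference between the tissues. In control mice 7 of 10 members differed, against 55.0% of all genes, so that the share is not far from the background. Of these 5 were higher and 2 lower in the RPE, against 30.8% and 24.2% of all genes. The arrays of the 2 tissues did not overlap for 7 of 10 members, against 52.2% of all genes. Of the receptors and their subunits, 5 were called higher in the RPE and Cd36 was not called. Itgav was higher by 18.9-fold (log2 difference 4.24, SE 0.06, limma adjusted p = 1.04e-18), Mertk by 15.1-fold (3.91, SE 0.10, adjusted p = 5.71e-16) and Itgb5 by 4.20-fold (2.07, SE 0.09, adjusted p = 6.26e-13). Tyro3 and Axl were 1.59-fold and 1.40-fold higher there. The part of fibroblasts, macrophages and other cells of the RPE samples in these differences was not tested. Mfge8 and Tub were 3.55-fold and 3.12-fold lower in the RPE than in the NSR. For Gas6, Pros1 and Cd36 the arrays of control RPE and control NSR overlapped, and the log2 differences of 0.15, 0.16 and 0.23 were not called. With arrays centred on the median of all their clusters the median over all genes was 0.19 in place of 0.04 on the log2 scale, and Gas6 was then called higher in RPE (log2 difference 0.29, adjusted p = 0.00564).

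In light-exposed mice 9 of 10 members differed between the tissues, against 58.0% of all genes, with 6 higher and 3 lower in the RPE, against 34.4% and 23.6%. The arrays did not overlap for 8 of 10, against 51.9% of all genes. Itgav was 7.94-fold and Mertk 6.49-fold higher in the RPE, and Itgb5 3.37-fold. Axl was 1.58-fold lower in light-exposed RPE than in light-exposed NSR (log2 difference -0.66, SE 0.09, limma adjusted p = 4.06e-06), while in control mice it was higher in the RPE. Mfge8 was 2.29-fold and Tub 3.14-fold lower in the RPE. Tyro3, Gas6 and Cd36 were higher in the RPE, by 1.52-fold, 1.33-fold and 1.77-fold, though the arrays of Cd36 overlapped and its NSR level was dim. Pros1 gave no call (log2 difference 0.18, adjusted p = 0.312), but was called without RPE light 4 (0.34, adjusted p = 0.0285). These values share arrays with the light comparisons above and are not separate evidence.

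Profiles like those of Mertk and Pros1 were looked for among all genes, by the root mean square difference over the 16 arrays after each gene was centred on its own mean. Nearest to Mertk were Alad, an enzyme of heme synthesis, at 0.149, Dusp6, a phosphatase of ERK, at 0.190, and Fez2 at 0.195. Each of these rose in the NSR and fell in the RPE, by log2 differences of 0.69 and -0.38 for Alad, 0.73 and -0.52 for Dusp6, and 0.40 and -0.25 for Fez2. Itgav was number 6 in this order, at 0.217. Nearest to Pros1, the member with the largest light response, were Stat3, a transcription factor of cytokine signalling, at 0.293, Fas, a death receptor, at 0.302, and Myd88, an adaptor of Toll-like receptors, at 0.308. They rose in the NSR and the RPE by log2 differences of 1.96 and 1.46, 1.18 and 1.59, and 1.60 and 1.28. The nearest genes of both members were picked for likeness on the same 16 arrays, so their shared directions follow from that choice. The member nearest to Pros1 was Axl, at 0.686 and number 270.

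**Figure D4:**
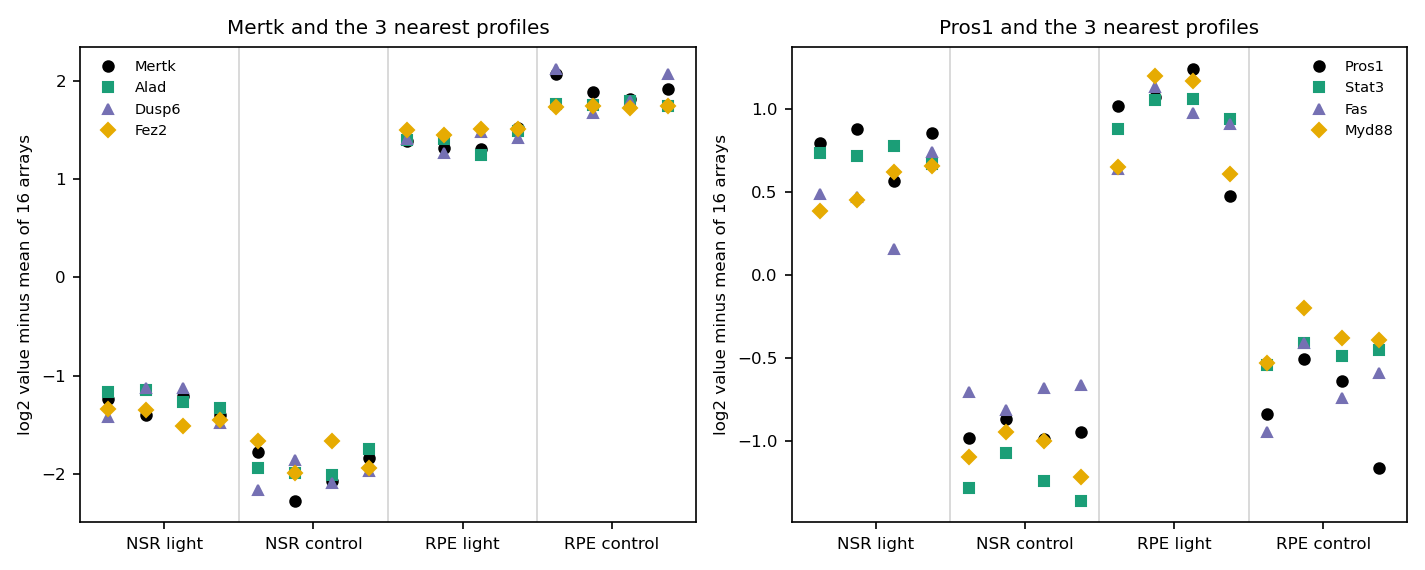
Log2 value minus the gene's mean over 16 arrays (vertical axis) of Mertk, of Pros1 and of the 3 genes nearest to each, on the arrays of the 4 groups (horizontal axis, replicates side by side). The genes nearest to Mertk separate by tissue first, and those nearest to Pros1 by light, which follows from their choice by likeness.

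The intracellular part of the pathway was described from lists of genes. Of 25 genes of engulfment signalling and the phagosome, 5 rose and 3 fell in the NSR, against 8.87% and 6.24% of all genes, and 3 rose and 5 fell in the RPE, against 9.08% and 8.53%. The median log2 difference was 0.11 in the NSR and -0.00 in the RPE, against -0.02 and -0.01 over all genes. Anxa2, an annexin that takes part in outer segment uptake by mouse RPE, rose 3.76-fold in the NSR (8.11 ± 0.40 in light-exposed NSR and 6.20 ± 0.12 in control NSR, SD, n = 4). Dock1, which activates Rac1 at the phagocytic cup, rose 2.00-fold in the NSR. Anxa2 also rose in the RPE, by 1.64-fold (limma adjusted p = 0.00124). In the RPE the 2 largest changes were falls: Elmo2, a partner of Dock1, was 2.02-fold lower (7.51 ± 0.16 in light-exposed RPE and 8.53 ± 0.08 in control RPE). Gulp1, an adaptor of engulfment receptors, was 1.71-fold lower in light-exposed RPE, at 9.71 ± 0.03, against 10.48 ± 0.06 in control RPE. It also fell in the NSR, by 1.83-fold (limma adjusted p = 6.78e-06), and its response did not differ between the tissues (adjusted p = 0.579).

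Partners and ligands of alpha v integrins moved in both directions. Of 13 measured, 5 rose and 1 fell in the NSR, against 8.87% and 6.24% of all genes, and 3 rose and 2 fell in the RPE, against 9.08% and 8.53%. Itgb8, a beta subunit that pairs with alpha v and activates TGF-beta, rose 2.31-fold in the NSR (limma adjusted p = 2.85e-07), and Fn1, fibronectin, rose 1.63-fold. In the RPE, Tnc, the matrix protein tenascin-C, rose 4.92-fold, at 8.24 ± 0.37 in light-exposed and 5.94 ± 0.27 in control mice (SD, n = 4). Itgb6, another partner of alpha v, was 2.41-fold lower in light-exposed RPE, where its mean of 5.59 was in the dim range below 5.63, so that the size of the fall is uncertain. Itgb8 was 1.53-fold lower in light-exposed RPE (adjusted p = 0.000287), and its response in the RPE minus that in the NSR was -1.82 (adjusted p = 2.75e-09). The RPE value of Itgb8 was chosen for mention after it was seen.

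Of 24 other receptors and bridges of apoptotic cells, 5 rose and 2 fell in the NSR, and 3 rose and 3 fell in the RPE. The shares over all genes were 8.87% higher and 6.24% lower for the NSR, and 9.08% and 8.53% for the RPE, so that the RPE counts are near the background. Msr1, a macrophage scavenger receptor, rose 3.64-fold in the NSR, at 6.73 ± 0.12 in light-exposed and 4.87 ± 0.18 in control mice (SD, n = 4). It rose 3.21-fold in the RPE, at 7.10 ± 0.33 in light-exposed and 5.42 ± 0.07 in control mice. Its control levels were in the dim range of 5.63 and below, so that the size of the rise is uncertain. C1qc, a chain of the opsonin C1q, rose 1.47-fold in the NSR, and Cd14, a co-receptor of lipopolysaccharide that also binds dying cells, rose 2.15-fold in the RPE.

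Of 11 genes of the shedding, feedback and further ligands of the Mertk family, 5 rose and 1 fell in the NSR, and 2 rose and 1 fell in the RPE, where 15.1% of all genes were called in the NSR and 17.6% in the RPE. Ifnar2, a subunit of the type I interferon receptor, rose 2.42-fold in the NSR, and Lgals3, galectin-3, a further ligand of Mertk, rose 1.75-fold. In the RPE, Rhbdf2, which carries the sheddase ADAM17 to the cell surface, rose 1.45-fold and Ifnar1, the other interferon receptor subunit, 1.32-fold. In the tubby family Tulp1, a photoreceptor protein that the list of further ligands also holds, was the 1 call among 5 genes in the NSR, 1.40-fold lower with light, and the RPE had 0 calls.

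Of 9 genes of vitamin K dependent carboxylation and the protein C system, which mature and use Gas6 and protein S, 1 rose in the NSR and 2 fell in the RPE, which is near the 15.1% and 17.6% of all genes called there. F2r, the thrombin receptor, rose 1.34-fold in the NSR (limma adjusted p = 0.0483). Nqo1, a quinone reductase, was 3.75-fold lower in light-exposed RPE, at 7.40 ± 0.34, against 9.31 ± 0.14 in control RPE (SD, n = 4). Vkorc1, which recycles vitamin K, was 1.31-fold lower there.

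Of 11 genes of phosphatidylserine exposure, 2 rose and 3 fell in each tissue, where 15.1% of all genes were called in the NSR and 17.6% in the RPE. Ano6, a calcium-gated lipid scramblase, rose 2.24-fold in the NSR, and Atp8a2, a flippase of photoreceptors, was 1.61-fold lower in light-exposed NSR. In the RPE, Plscr1, a phospholipid scramblase, rose 1.57-fold and Atp11a, a flippase, was 1.54-fold lower. Of 12 genes of Cd36 signalling and lipid handling, 2 rose and 2 fell in the NSR, and 3 rose and 2 fell in the RPE, beside the same shares of all genes. Plin2, which coats lipid droplets, rose 2.31-fold in the NSR and 2.85-fold in the RPE, and Pparg, a lipid-sensing nuclear receptor, rose 2.87-fold in the RPE. Abcg1, a sterol exporter, was 1.51-fold lower in light-exposed NSR.

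Marker genes of the cell types that hold these receptors moved as follows. The shares over all genes in the NSR were 8.87% higher and 6.24% lower. In the NSR, where Mertk and Itgav rose, 0 of 12 RPE markers rose and 3 fell. The latter were Rpe65, dim in light-exposed (4.11) and control NSR (5.10), Rgr (6.03 and 7.15) and Otx2. Otx2 does not mark the RPE alone, with means of 11.15 in light-exposed and 11.57 in control NSR. Microglia and macrophages had 17 measured markers, of which 5 rose and 0 fell there, with list medians of 5.91 to 6.07 in light-exposed NSR and 5.78 to 5.91 in control NSR. Those that rose were Cd68 by 3.48-fold, Lyz2 by 1.90-fold, C1qc by 1.47-fold, Adgre1 by 1.23-fold and C1qb by 1.20-fold. Control NSR means of Lyz2 (4.81) and Adgre1 (5.33) were in the dim range below 5.63, so that the size of their rise is uncertain. The other 12 were not called, among them Csf1r and Cx3cr1 with log2 differences of 0.03 and 0.01, and Tmem119 and P2ry12 with -0.06 and -0.19. For Müller glia, 2 of 10 markers rose and 6 fell, with list medians of 8.10 to 8.26 in light-exposed NSR and 8.63 to 8.80 in control NSR. Not all of that list marks glia of the NSR alone. In control mice Car14, Apoe and Sox9 were 9.10-fold, 4.97-fold and 4.32-fold higher in the RPE than in the NSR. Glul did not differ between the tissues, and the rest of the list was lower in the RPE. All 12 rod markers fell in the NSR, where Mfge8 and Gas6 fell. The part of these cell types in the changes of Mertk, Axl, Itgav, Mfge8 and Gas6 was not tested.

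In the RPE, where Mertk, Itgav and Itgb5 fell, 7 of 12 RPE markers fell and 0 rose, with a median log2 difference of -0.30. The shares over all genes in the RPE were 9.08% higher and 8.53% lower. Mertk, Itgav and Itgb5 had log2 differences of -0.54, -0.40 and -0.38. Of 7 melanocyte markers, some of which the RPE also expresses, 6 fell and 0 rose, with a median log2 difference of -0.61, among them Tyr (-1.06), Kit (-0.73), Mlana (-0.62) and Sox10 (-0.41). The median level of that list ran the other way, at 8.48 to 8.97 in light-exposed RPE and 8.16 to 8.53 in control RPE, and the member that was not called, Ednrb, had a log2 difference of 0.75. Macrophage markers had 2 higher and 1 lower of 17, with list medians of 6.96 to 7.57 in light-exposed RPE and 6.85 to 7.40 in control RPE. Among them Cd68 was 6.78-fold and Itgam 1.45-fold higher and Csf1r 2.20-fold lower in light-exposed RPE. Neutrophils and monocytes had 11 measured markers, of which 4 rose and 0 fell, with list medians of 5.09 to 5.28 in light-exposed RPE and 4.74 to 5.17 in control RPE. These medians lie in the dim range below 5.63, so that little can be said of the list. Of those that rose, S100a8 and Ccr2 were dim in both groups and Plac8 in control RPE (5.03). S100a9 was not dim, at 6.75 in light-exposed and 5.82 in control RPE. Endothelial markers, of which 1 of 13 rose, had medians of 6.62 to 6.98 in light-exposed RPE and 6.37 to 6.76 in control RPE. The macrophage and endothelial counts are near the shares over all genes. The part of these cells in the rise of Pros1 and in the falls was not tested.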

How the data were processed

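RNA of the NSR and RPE of 8 mice was hybridised to 16 Affymetrix Mouse Gene 1.0 ST arrays, each with 1 colour. The values deposited by the authors cover 35556 transcript clusters and come from RMA as run in Partek 6.6, according to the submitters' processing notes. Their range (2.20 to 13.84) is that of log2 expression as the authors deposited it, and the sources used here do not state centring or probe filters. Among 120 pairs of arrays 0 held identical values, and replicates are separate mice per the labels.

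By the platform annotation, 1 symbol belonged to 21789 clusters, several to 1621 and none here to 12146. Where a gene had several clusters, the one with the highest mean over the 16 arrays stood for it. R 4.3.3 with limma 3.58.1 (lmFit, eBayes) compared light with control within each tissue, and the tissues and the difference of responses in a fit of 4 group means. The threshold was a p of 0.05 after Benjamini-Hochberg adjustment over 19938 genes. The fits were tested on simulated data.

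The members, lists and motifs were chosen with earlier results of these data known. Named were all members, the 3 nearest profiles of Mertk and of the member with the largest light response, and the 2 called genes of each list with the largest change per tissue.

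NSR and RPE of 1 mouse share an identifier in the labels, and so pair by animal, with a correlation of their deviations between -0.011 and 0.053. Fits with the mouse or replicate number as a block, other scalings, filters, priors, weights and left-out arrays were alternatives.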

Additional observations from a re-analysis of the deposited data

Results flagged for a closer look

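The response to light differed between the tissues for 4 of 10 members by a test of the difference itself. The log2 response in the RPE minus that in the NSR was -1.22 for Mertk, -1.15 for Axl, -1.25 for Itgav and 0.63 for Mfge8.

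In 3 of 40 sets of 4 arrays, 1 array stood far from the other 3 by Dixon's test, which chance gives in about 1 in 20 sets. Tyro3 was 6.53 in NSR light 1, where the rest of that group had 6.29 to 6.31. Itgb5 was 9.16 in RPE light 3, where the rest of that group had 9.39 to 9.43. Mfge8 was 8.58 in NSR light 3, where the rest of that group had 8.80 to 8.84.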

How the results depend on the processing

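Of the 30 called values of members in the 5 comparisons, 28 kept direction and call under all 16 to 26 alternatives run, and the exceptions were Gas6 in the NSR and Itgb5 in the RPE. Of the 20 values not called, 11 kept direction and side under all alternatives. Those whose sign turned were near 0. Gas6 between control RPE and control NSR had a log2 difference of -0.05 with quantile normalization. The difference of responses of Pros1 was -0.12 with quantile normalization and -0.04 with array weights, and lay between -0.11 and 0.18 with single arrays left out. That of Tub was 0.07 with quantile normalization and 0.00 with arrays centred on the median of the genes tested, a scaling added after the data were seen, and between -0.10 and 0.06 with arrays left out, and that of Tyro3 between -0.15 and 0.04. The 3510 genes called for light in the RPE became 2056 when the arrays RPE control 2 and RPE light 1 and 2 were left out, in a fit of fewer arrays. With single arrays left out, members called were 5 to 7 for light in the NSR, 4 to 5 in the RPE, 7 and 9 to 10 between the tissues of control and light-exposed mice, and 4 for the difference of responses. With the mouse as replicate block, 7 and 9 members differed between the tissues and 4 in their response, and no member's call changed. With the replicate number as block, which only names mice here, Cd36 was called lower in light-exposed NSR (adjusted p = 0.0258). The correlation of same-numbered light-exposed and control arrays was between -0.017 and 0.066. The share of calls that were higher depended on the scaling. For light in the NSR it was 58.7%, but 67.3% with arrays centred on their median, 51.7% with arrays centred on the genes tested and 49.5% with quantile normalization. Between the tissues of control mice it was 56.0%, 72.2%, 58.4% and 50.1% in the same order, and of light-exposed mice 59.3%, 73.0%, 63.0% and 53.7%. The array signal above background is unknown, which limits Cd36 most.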
